A study of Mus musculus with 9 samples.

Results

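A set of 10 genes of Toll-like receptor signaling was followed across RNA-seq libraries of sorted splenic B cells. They are the receptor genes Tlr1, Tlr2, Tlr3, Tlr4, Tlr6, Tlr7 and Tlr9, the receptor-related gene Cd180, and the genes of the chaperone Unc93b1 and the adaptor Myd88. All 10 were found by gene symbol in each of the 9 libraries, among 24346 genes listed per library. The libraries came from wild-type C57BL6 mice, with no transgene and no treatment. The 3 groups were follicular (FO) B cells of 8-week-old mice, named FO B (Young), FO B cells of 50-week-old mice, named FO B (Aged), and age-associated B cells of 50-week-old mice, named ABCs (Aged), with 3 libraries each. FO B cells had been sorted on criteria that included B220hiCD43-CD23+CD21lo, and ABCs on criteria that included B220hiCD43-CD23-CD21loCD11b+CD11c+, after enrichment of B cells with magnetic beads. ABCs (Aged) and FO B (Aged) came from mice of the same age, and no ABCs of young mice were profiled here. Whether a difference between these groups is particular to ABCs of old mice therefore cannot be told.

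Toll-like receptors are membrane proteins that recognize conserved microbial molecules and, in B cells, act together with the antigen receptor. Receptors at the cell surface mainly recognize lipids and lipoproteins. Those in endosomes mostly recognize nucleic acids, including those of the host, and reach the endosome bound to Unc93b1. Nearly all of them signal through Myd88 to the transcription factor NF-kappaB and to interferon regulatory factors. ABCs are an antigen-experienced B cell population that accumulates with age and in autoimmune disease, and signals through Tlr7 and Tlr9 are known to favor their formation.

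To show the regulatory sequence next to the expression values, the 250 bases before the annotated start are printed for 3 genes that were higher in ABCs (Tlr9, Tlr2 and Myd88) and for Tlr1, which was lower. The sequences are from RefSeq on GRCm38.p6, which had entries for 7 of the 10 genes, and lie at chr9:106222348-106222597 (plus strand), chr3:83841609-83841858, chr9:119340019-119340268 and chr5:64933559-64933808 (all minus strand). By the GENCODE positions given below, the whole Myd88 window lies inside the Myd88 gene. The Tlr2 window, and by a few bases the Tlr1 window, reach into their genes. The annotations thus differ in where these genes start, and the starts used here are those of RefSeq. Each is written 5′ to 3′ along its gene. Capitals mark matches on either strand to 6 motifs, namely GGAAGT (Ets-type), CAGGTG (an E-box of the kind Zeb2 binds), TGANTCA (AP-1), GGTGTGA (T-box, the kind Tbx21 binds), a pair of GAAA with any 2 bases between (interferon-response type) and GGGA, any base, TT, any base and CC (kappaB type).
Tlr9: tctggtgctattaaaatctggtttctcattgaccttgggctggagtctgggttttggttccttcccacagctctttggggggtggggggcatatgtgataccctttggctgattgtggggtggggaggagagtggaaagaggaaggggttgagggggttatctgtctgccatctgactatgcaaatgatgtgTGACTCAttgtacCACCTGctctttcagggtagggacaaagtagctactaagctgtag
Tlr2: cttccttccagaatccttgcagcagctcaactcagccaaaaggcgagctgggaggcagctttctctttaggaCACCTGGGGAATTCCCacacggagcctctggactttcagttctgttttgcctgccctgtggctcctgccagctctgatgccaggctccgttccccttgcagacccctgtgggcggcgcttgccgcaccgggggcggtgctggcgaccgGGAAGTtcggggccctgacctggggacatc
Myd88: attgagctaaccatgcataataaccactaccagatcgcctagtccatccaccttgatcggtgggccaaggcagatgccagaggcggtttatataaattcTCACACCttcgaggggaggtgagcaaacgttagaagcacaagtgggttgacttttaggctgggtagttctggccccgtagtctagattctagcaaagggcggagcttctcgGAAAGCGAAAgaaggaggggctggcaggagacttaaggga
Tlr1: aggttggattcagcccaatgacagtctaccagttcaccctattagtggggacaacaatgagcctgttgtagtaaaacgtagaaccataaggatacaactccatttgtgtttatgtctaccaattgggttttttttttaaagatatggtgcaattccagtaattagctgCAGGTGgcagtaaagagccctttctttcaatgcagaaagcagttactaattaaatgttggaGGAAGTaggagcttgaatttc

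The Tlr9 window held an AP-1 match that begins 58 bases before the start and an E-box match at 45 bases. The Tlr2 window held an E-box match at 178 bases that directly adjoins a kappaB-type match at 172 bases, and an Ets-type match at 30 bases. The Myd88 window held the T-box match of these windows at 151 bases and an interferon-response type match at 40 bases. In the Tlr1 window shown, an E-box match lay at 82 bases and an Ets-type match at 21 bases, whereas the window of a second annotated Tlr1 start held none of the 6 motifs. Of the windows not printed, that of Tlr3 held a kappaB-type match at 211 bases, and 1 window of Tlr6 held a pair of overlapping interferon-response type matches at 116 and 110 bases. Among the 7 genes with an entry, the Ets-type motif was found in 4, the E-box in 3, the kappaB and interferon-response types in 2 each, and the AP-1 and T-box motifs in 1 each. Over all 32851 windows of this length, the shares holding these motifs were 19.7% for the Ets-type, 17.2% for the E-box, 0.98% for the kappaB type, 2.98% for the interferon-response type, 6.75% for AP-1 and 3.33% for the T-box. A gene counted if any of its windows matched, and Tlr1, Tlr6 and Cd180 had several, whereas the shares are per window. The counts and shares are therefore unlike in unit. A match describes these letters and does not show that a factor binds there.

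Before the results, the identity of the sorted cells was checked against marker genes. Tbx21, the T-box factor that marks ABCs, was at 165 to 189 FPKM in ABCs, 4.75 to 8.72 in aged and 1.94 to 2.90 in young FO B cells. FPKM counts the fragments of a gene scaled to its transcript length and to the depth of the library. The integrin genes used for the ABC sort, Itgax and Itgam, were at 45.0 to 65.7 FPKM in ABCs and under 1 FPKM in each FO B library. Fcer2a, which encodes CD23, was at 697 FPKM or more in FO B libraries and at 4.15, 6.95 and 0.463 FPKM in ABC replicates 1, 2 and 3. Spn, which encodes the CD43 that the sort excluded, was nevertheless at 54.1 to 86.7 FPKM in ABCs against 2.75 to 3.32 in FO B (Aged). Of 7 genes that mark marginal zone and B-1 B cells, 5 rose in ABCs (Cd9, S1pr1, Cd5, Zbtb32 and Bhlhe41) and 2 fell (Cr2 and Cd1d1). Cr2 encodes CD21, for which both populations were sorted as low. It was at 0.745 to 8.39 FPKM in ABCs against 127 to 166 in FO B (Aged). Of 12 macrophage and monocyte markers, 2 rose in ABCs relative to FO B (Aged), and their summed level was 199.5 to 239.7 FPKM in ABCs against 11.5 to 18.6. Adgre1 made up most of that sum, at 174 to 222 FPKM. The second to rise was Cd68, at 6.38 to 13.1 FPKM in ABCs against 3.15 to 4.70. Lyz2, C1qb and C1qc did not pass, at up to 7.02, 2.42 and 4.03 FPKM in ABCs. The other 7 were below the filter, among them Csf1r at 0.301 to 0.831 FPKM in ABCs, Cd14 at 0.152 to 0.252 and Mertk at most 0.198. The summed level of 6 T cell markers stayed under 1 FPKM in every library. Of 5 NK cell markers, Prf1 rose, at 24.1 to 38.0 FPKM in ABCs, and Ncr1 was at most 0.0882. Of 8 dendritic cell markers, Zbtb46 rose, at 2.90 to 3.34 FPKM in ABCs against 0.437 to 1.46 in FO B (Aged). Their summed level was 277 to 283 FPKM against 300 to 338, nearly all of it Ccr7 and Bst2, which FO B cells also express. Siglech, at 0.664 to 1.56 FPKM against at most 0.36, and Xcr1, at 0.201 to 0.37 against at most 0.167, were below the filter. S100a9 fell among 6 neutrophil markers, with sums of 2.48 to 4.26 FPKM in ABCs against 4.13 to 28.1. Sdc1, Prdm1 and Jchain rose among 5 plasma cell markers, with sums of 191 to 225 FPKM against 129 to 148. Most of that sum was Xbp1, at 126 to 142 FPKM against 102 to 122, which did not pass, nor did Irf4. Jchain was at 12.5 to 61.6 FPKM in ABCs against 2.73 to 8.44 in FO B (Aged). Sdc1 was at 8.37 to 29.5 against 2.69 to 3.76, and Prdm1 at 2.93 to 5.70 against 0.180 to 0.713. The Cd68, S100a9, Sdc1 and Jchain calls were lost when some single libraries were left out. Leaving out any single FO B (Aged) library ended the Cd5 and Cd1d1 calls. Whether cells of these types contributed to the differences below was not tested. In bulk libraries, fewer cells of one kind and less RNA per cell cannot be told apart.

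Among the 10 genes, those of the endosomal receptors Tlr7, Tlr9 and Tlr3 and of their chaperone were all higher in ABCs than in FO B cells of the same age. Tlr7, Tlr9 and Unc93b1 passed the test in every alternative fit that included them, and Tlr3 did not. Tlr7, an X-linked gene whose product senses single-stranded RNA, was at 27.2, 20.7 and 36.7 FPKM in the 3 ABC libraries. In FO B (Aged) it was at 6.85, 7.48 and 10.5 FPKM, and in FO B (Young) at 14.5, 12.6 and 12.2. The 3 groups did not overlap, with ABCs highest, young FO B cells between and aged FO B cells lowest. Compared with FO B (Aged), the ABC mean was 3.41-fold higher, and the log2 fold change of FPKM + 1 was 1.64 ± 0.22 (SE, FDR = 0.00166 by limma). FDR is the p adjusted over all genes tested, and calls were made under 0.05. This placed Tlr7 at the 96.4 percentile of the fold changes of the 10412 genes tested.

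Tlr9, the receptor for unmethylated CpG DNA, was at 5.56, 7.13 and 6.15 FPKM in ABCs. It was at 2.45, 1.89 and 2.21 FPKM in FO B (Aged) and 2.03, 2.23 and 2.81 in FO B (Young). All 3 ABC libraries lay above all 6 FO B libraries, while the FO B groups overlapped. The difference from FO B (Aged) was 1.19 ± 0.14 on the log2 scale (FDR = 8.47e-04), with a 2.88-fold higher mean. For Tlr9 the whole reads behind the FPKM values could be recovered from their steps, and the 3 libraries summed to 526 reads in ABCs, 190 in FO B (Aged) and 204 in FO B (Young).

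Within each library the ratio of Tlr7 to Tlr9 does not depend on the scaling between libraries. It was 4.89, 2.90 and 5.97 in ABCs, 2.80, 3.96 and 4.76 in FO B (Aged), and 7.13, 5.63 and 4.32 in FO B (Young). The groups overlapped in all 3 pairings. The mean log2 ratio was 0.23 higher in ABCs than in FO B (Aged) (exact two-sided permutation test, p = 0.5), and 0.57 lower in FO B (Aged) than in FO B (Young) (exact permutation p = 0.2). Between ABCs and FO B (Young), ABCs were lower by 0.34 (exact permutation p = 0.5). With 3 against 3 libraries the smallest p of this test is 0.1, so it cannot pass 0.05. The 3 ABC libraries differed in which receptor was high, since replicate 2 had the lowest Tlr7 and the highest Tlr9 level of its group.

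Tlr3, which senses double-stranded RNA and signals through the adaptor Ticam1 and not Myd88, was the least abundant of the 10 genes. Its level was 2.25, 3.75 and 1.91 FPKM in ABCs, 0.686, 1.55 and 1.01 in FO B (Aged), and 0.956, 0.967 and 0.879 in FO B (Young). ABC libraries were all above FO B libraries, and replicate 2 was highest in both groups of old mice. Recovered reads summed to 281 in ABCs, 123 in FO B (Aged) and 102 in FO B (Young). The log2 fold change against FO B (Aged) was 0.79 ± 0.24 (FDR = 0.0405). This call was lost when FO B (Aged) replicate 1 or 3 or ABC replicate 1 or 2 was left out, with fold changes of 0.58 to 0.86 and an FDR of up to 0.127 over the alternatives.

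Unc93b1, which carries Tlr3, Tlr7 and Tlr9 from the endoplasmic reticulum to endosomes, was by far the most abundant transcript of the 10. It was at 866, 908 and 1035 FPKM in ABCs, 489, 480 and 478 in FO B (Aged), and 491, 513 and 461 in FO B (Young). FO B libraries varied little, and no FO B library reached the lowest ABC library. The mean was 1.94-fold higher in ABCs than in FO B (Aged), a log2 difference of 0.95 ± 0.08 (FDR = 2.26e-04). Among genes with at least 1 FPKM, Unc93b1 ranked at the 98.8 to 99.2 percentile in ABC libraries and at 97.9 to 98.1 in FO B (Aged).

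Myd88, the adaptor shared by the other Toll-like receptors, also rose. It was at 63.5, 53.4 and 64.0 FPKM in ABCs, 40.0, 43.9 and 44.3 in FO B (Aged), and 41.0, 41.6 and 44.5 in FO B (Young). Again the ABC libraries stood above all FO B libraries, with 2600 recovered reads in ABCs, 1955 in FO B (Aged) and 1902 in FO B (Young). The difference from FO B (Aged) was 0.48 ± 0.09 (FDR = 0.00651), a 1.41-fold higher mean. Exons of Myd88 and of Acaa1a on the opposite strand overlap by 290 bases, and 6.44% of the read-length windows of Myd88 transcripts are shared with that gene. The kit does not mark strand, so reads in this stretch cannot be assigned to either gene.

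**Figure D1:**
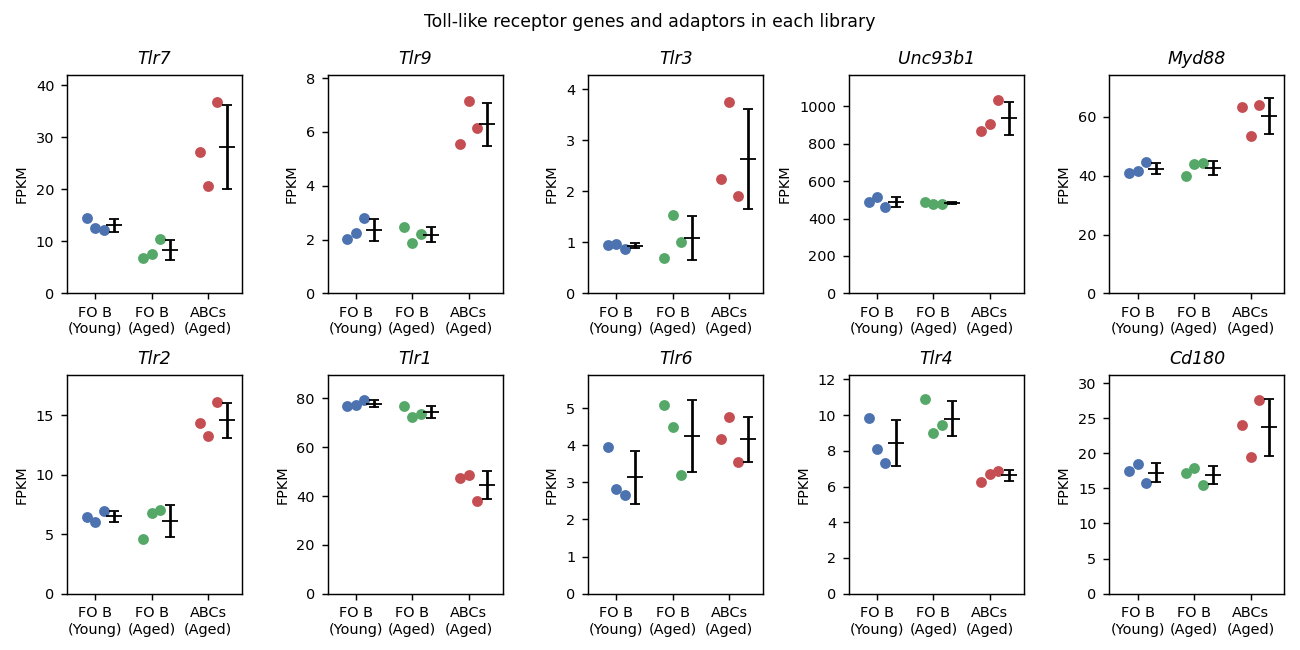
FPKM of the 10 genes in each library, with 1 panel per gene and a linear y axis from 0. Colored points are the 3 libraries of FO B (Young), FO B (Aged) and ABCs (Aged), and the black dash and bar give the mean ± SD. ABC points lie above all FO B points for Tlr7, Tlr9, Tlr3, Unc93b1, Myd88, Tlr2 and Cd180, below them for Tlr1 and Tlr4, and among them for Tlr6.

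The surface receptors did not move together. Tlr2 pairs with Tlr1 or Tlr6 to recognize bacterial lipoproteins, and the 3 genes differed in direction. Tlr2 was at 14.3, 13.2 and 16.1 FPKM in ABCs, 4.60, 6.76 and 7.01 in FO B (Aged), and 6.46, 6.02 and 6.97 in FO B (Young). Every ABC library had more Tlr2 than every FO B library, with 981 recovered reads in ABCs against 441 in FO B (Aged) and 455 in FO B (Young). The log2 fold change against FO B (Aged) was 1.14 ± 0.16 (FDR = 0.00181), a 2.38-fold higher mean.

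Tlr1, which was the most abundant receptor gene in all 3 groups, fell. It was at 47.2, 48.6 and 38.0 FPKM in ABCs, 77.1, 72.5 and 73.4 in FO B (Aged), and 76.9, 77.2 and 79.5 in FO B (Young). All ABC libraries were below all FO B libraries. The log2 difference from FO B (Aged) was -0.73 ± 0.10 (FDR = 0.00171), and the FO B (Aged) mean was 1.67-fold that of ABCs.

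Tlr6 was at 4.18, 4.75 and 3.54 FPKM in ABCs, 5.09, 4.48 and 3.20 in FO B (Aged), and 3.95, 2.81 and 2.65 in FO B (Young). Recovered reads summed to 255, 273 and 199 in these groups. The ranges overlapped, and the log2 difference between ABCs and FO B (Aged) was -0.02 ± 0.18 (FDR = 0.951). Tlr1 and Tlr6 are neighboring paralogs on chromosome 5, and 256 of the read-length windows of their transcripts are identical, which is 8.48% of the Tlr1 windows and 7.01% of the Tlr6 windows. How reads from this stretch were divided between both genes is not given in the sources used here.

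Tlr4, the lipopolysaccharide receptor, was at 6.26, 6.73 and 6.88 FPKM in ABCs, 10.9, 9.03 and 9.46 in FO B (Aged), and 9.83, 8.10 and 7.31 in FO B (Young). ABCs were below every FO B library, with 616 recovered reads against 954 in FO B (Aged) and 812 in FO B (Young). The log2 difference from FO B (Aged) was -0.50 ± 0.11 (FDR = 0.0105), and the FO B (Aged) mean was 1.48-fold that of ABCs. With libraries scaled to a common upper quartile, which moved the median of all genes by 0.16, the Tlr4 difference was -0.34 and no longer passed (FDR = 0.0943).

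Cd180 encodes a receptor-like protein that lacks the signaling domain and, with Ly86, modulates the response of B cells to lipopolysaccharide. It was at 24.0, 19.5 and 27.5 FPKM in ABCs, 17.3, 18.0 and 15.5 in FO B (Aged), and 17.5, 18.4 and 15.8 in FO B (Young). The ABC libraries lay above all FO B libraries, while the FO B groups overlapped. The lowest ABC library, replicate 2, came within 2 FPKM of the highest library of each FO B group. Recovered reads summed to 1273 in ABCs, 964 in FO B (Aged) and 967 in FO B (Young). The log2 difference from FO B (Aged) was 0.45 ± 0.13 (FDR = 0.0336). Only 7 of 15 alternative settings kept this call, with an FDR of 0.00995 to 0.109. Leaving out ABC replicate 1 or 3, or any single FO B (Aged) library, ended the call, with differences of 0.34 to 0.50.

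Of the 10 genes, 7 were higher in ABCs than in FO B (Aged), 2 were lower and 1 did not pass. Over all genes tested, 35.9% were called, 19.4% as higher and 16.5% as lower, and groups without overlap were found for 52.6% of all genes and for 9 of these 10. The median log2 difference of the 10 genes was 0.64, against -0.01 over all genes tested, whose central 90% ranged from -0.83 to 1.31. Only Tlr7 lay outside that range. The 1 added to each FPKM shrinks log2 differences at low levels, where Tlr9 (2.88-fold higher mean) and Tlr3 (2.44-fold) stood. The study set a minimum of 2.3 for the log2 change together with 0.01 for the FDR, and at these thresholds none of the 10 passed, against 1.92% of all genes.

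Levels of the 10 genes were ordered within each group by mean FPKM, which is per transcript length. In FO B (Young) the order was Unc93b1, Tlr1, Myd88, Cd180, Tlr7, Tlr4, Tlr2, Tlr6, Tlr9 and Tlr3, and the ranges of Tlr6 and Tlr9 overlapped. FO B (Aged) kept this order except that Tlr4, at 9.80 ± 0.99 FPKM (SD, n = 3), stood before Tlr7, at 8.28 ± 1.95, with overlapping ranges. Tlr7 also overlapped Tlr2, and Tlr2 overlapped Tlr6. In ABCs, Myd88 came before Tlr1, and Tlr7 moved to the fourth place at 28.2 ± 8.1 FPKM, overlapping Cd180 at 23.7 ± 4.0. Tlr9 stood before Tlr6 and overlapped Tlr4, and Tlr6 overlapped Tlr3.

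FO B cells of both ages were compared. These groups also differed in the sort marker gene Fcer2a, called lower in aged cells (697 to 728 FPKM) than in young (948 to 1036 FPKM). Tbx21 was higher in aged cells without overlap but was not called. None of the 10 genes passed between FO B (Aged) and FO B (Young) by limma, where 0.464% of all 10122 genes tested were called. At an unadjusted p under 0.05 there were 1298 genes, of which Tlr7 was 1. Tlr7 was 6.85 to 10.5 FPKM in aged and 12.2 to 14.5 FPKM in young FO B cells, without overlap. Groups without overlap and a lower aged group were found for 8.96% of all genes. The log2 difference of Tlr7 was -0.62 ± 0.15 (FDR = 0.141), and it passed in 1 of 15 alternatives, without FO B (Aged) replicate 3 (-0.78, FDR = 0.0371). The next largest differences were 0.34 ± 0.18 for Tlr6 (FDR = 0.484) and 0.20 ± 0.12 for Tlr4 (FDR = 0.548). For the other 7 genes they lay between -0.09 and 0.09.

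ABCs were also set beside FO B (Young), a comparison that shares the ABC libraries with the first and therefore adds no independent evidence for them. Here 7 genes were higher and 1 was lower, against 40.7% of 10438 genes called, 21.6% as higher and 19.1% as lower. Tlr7 differed by 1.02 ± 0.19 (FDR = 0.0054), beside 1.64 against FO B (Aged). Tlr9 differed by 1.12 ± 0.14, Tlr2 by 1.05 ± 0.11, Unc93b1 by 0.94 ± 0.08 and Tlr3 by 0.88 ± 0.21, each with an FDR of 0.0139 or less. Myd88 was higher by 0.50 ± 0.09, Cd180 by 0.43 ± 0.13, and Tlr1 was lower, at -0.80 ± 0.10. Tlr4 (-0.30 ± 0.12, FDR = 0.0961) and Tlr6 (0.32 ± 0.17, FDR = 0.16) did not pass.

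**Figure D2:**
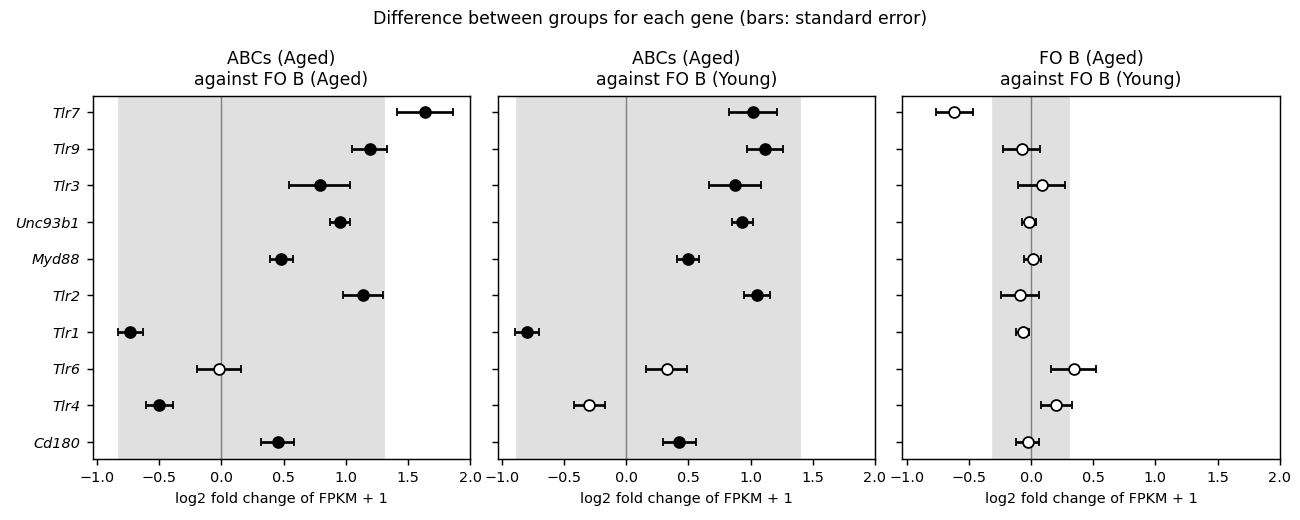
Log2 fold change of FPKM + 1 on the x axis for each of the 10 genes on the y axis, in 3 panels for the 3 comparisons. Points with bars are the difference ± SE, filled where the limma FDR was under 0.05, and the gray band holds the central 90% of all genes tested. Tlr7 is the only point right of the band in the first panel, at 1.64, and no point is filled in the panel of aged against young FO B cells.

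The receptor genes of the mouse that are not among the 10 were low, except for Tlr12. Tlr12, which is known as a sensor of a parasite protein, was at 4.73, 4.05 and 9.38 FPKM in ABCs, 0.497, 0.92 and 0.493 in FO B (Aged), and 0.797, 0.844 and 1.22 in FO B (Young). Recovered reads summed to 454, 52 and 75 in these groups, all ABC libraries were above all FO B libraries, and the log2 difference from FO B (Aged) was 2.04 ± 0.28 (FDR = 0.00173). Tlr11 was listed at 0 in all 9 libraries, which, for counting error only, allows an expected count of up to 3 reads in each. Over all 9 libraries, Tlr5 had 1 read, in ABC replicate 2. Tlr13 had 5 reads in ABCs, 4 in FO B (Aged) and 1 in FO B (Young), and Tlr8 had 14, 0 and 5, with 12 of the 14 in ABC replicate 2. Those 4 genes were below the filter of a mean of 1 FPKM and were not tested.

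Accessory and trafficking genes that passed the test were all higher in ABCs. Of 16 on the list, 13 were tested against FO B (Aged), 9 rose, none fell and 4 did not pass, beside 19.4% higher and 16.5% lower over all genes. The median log2 difference was 0.46. Ly96, which encodes the lipopolysaccharide-binding partner of Tlr4, was at 105, 89.2 and 120 FPKM in ABCs and at 34.7, 28.8 and 26.6 in FO B (Aged), a difference of 1.77 ± 0.14 (FDR = 1.56e-04), while Tlr4 itself fell. Cd14, which delivers lipopolysaccharide to this complex, had 7 recovered reads in ABCs, 5 in FO B (Aged) and 1 in FO B (Young). Ctsb, a lysosomal protease of the kind that cleaves endosomal receptors, rose by 1.44 ± 0.09 (FDR = 7.0e-05). Slc15a3, an endolysosomal transporter, was higher by 1.01 ± 0.26 (FDR = 0.0211) but lost the call without FO B (Aged) replicate 1 (0.995) or 3 (0.928) and with no filter. Ly86, the partner of Cd180, was chosen after its values were seen and was at 699, 684 and 884 FPKM in ABCs against 522, 515 and 603 (0.46 ± 0.12, FDR = 0.0207), a call lost without FO B (Aged) replicate 1 (0.43) or 2 (0.42) or with quantile scaling (0.39).

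Downstream adaptors and kinases were examined next. Of 20 genes, all tested, 3 rose, 3 fell and 14 did not pass, beside 19.4% higher and 16.5% lower over all genes. The median difference was -0.15. Ticam1, the adaptor of Tlr3, rose by 0.83 ± 0.18 (FDR = 0.0104), Irf8, a transcription factor of B and myeloid cells, by 0.55 ± 0.07 (FDR = 0.00117), and Irak4, the kinase recruited by Myd88, by 0.38 ± 0.09 (FDR = 0.0148). Irf7, the factor that drives type I interferon after Tlr7 and Tlr9 signals, fell. It was at 11.4, 11.0 and 15.8 FPKM in ABCs, 29.7, 18.4 and 47.0 in FO B (Aged) and 52.2, 45.0 and 60.2 in FO B (Young), and its difference from FO B (Aged) was -1.17 ± 0.31 (FDR = 0.0238). Ikbkb, a kinase upstream of NF-kappaB, changed by -0.69 ± 0.10 (FDR = 0.00253) and Traf3, a ubiquitin ligase of this pathway, by -0.51 ± 0.12 (FDR = 0.0165). Without 1 library, calls were lost for Irak4 (FO B (Aged) replicate 1 or ABC replicate 1, 0.34 and 0.35), for Irf7 (FO B (Aged) replicate 1, ABC replicate 1 or 2, -1.17 to -1.08) and for Traf3 (FO B (Aged) replicate 1 or ABC replicate 1, -0.44 and -0.47). Traf3 also lost its call with upper quartile scaling (-0.35) and Irf7 with no filter.

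Among 10 negative regulators, 9 were tested, of which 2 rose, 2 fell and 5 did not pass, beside 19.4% higher and 16.5% lower over all genes. Tnfaip3, which encodes the ubiquitin-editing enzyme that restrains NF-kappaB, was at 30.9, 37.0 and 48.4 FPKM in ABCs and 18.1, 17.0 and 17.2 in FO B (Aged), a rise of 1.09 ± 0.15 (FDR = 0.00179). Dusp1, a phosphatase of mitogen-activated kinases, ranged from 97.9 to 274 FPKM in ABCs and from 44.4 to 93.4 in FO B (Aged). Its difference of 1.31 ± 0.40 (FDR = 0.0387) was lost without FO B (Aged) replicate 1 (1.01) or 3 (1.39) or ABC replicate 2 (1.25) or 3 (0.98), and also with no filter and with no trend. Irak3, an inhibitory member of the kinase family, fell by 0.64 on the log2 scale (SE 0.14, FDR = 0.0116) and Sigirr, an inhibitory receptor, fell by 0.43 (SE 0.08, FDR = 0.00437). Both calls were lost with upper quartile scaling, at -0.46 and -0.26.

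The last list held genes known to be induced by Toll-like receptor signals. Of 16, 11 were tested, 5 rose, 3 fell and 3 did not pass, beside 19.4% higher and 16.5% lower over all genes. The median difference was 0.47. Cxcl10, an interferon-responsive chemokine, was at 38.6, 34.6 and 102 FPKM in ABCs and under 1 FPKM in every FO B library, a rise of 5.08 ± 0.38 (FDR = 1.43e-04). The costimulatory genes Cd80 and Cd86 rose by 4.32 ± 0.21 (FDR = 2.3e-05) and 1.65 ± 0.17 (FDR = 5.43e-04). Myc (-1.24 ± 0.15, FDR = 8.62e-04) and Tnf (-0.94 ± 0.11, FDR = 7.33e-04) fell, Tnf from 11.1 to 12.6 FPKM in FO B (Aged) to 5.28 to 6.29 FPKM in ABCs. Nfkbid, an inhibitor of NF-kappaB, differed by -0.40 ± 0.12 (FDR = 0.0422), a call that 7 of 15 alternatives kept and that was lost in turn without each FO B (Aged) replicate and without ABC replicate 2 or 3 (-0.46 to -0.29). The remaining genes of the list were below the filter and were not tested.

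**Figure D3:**
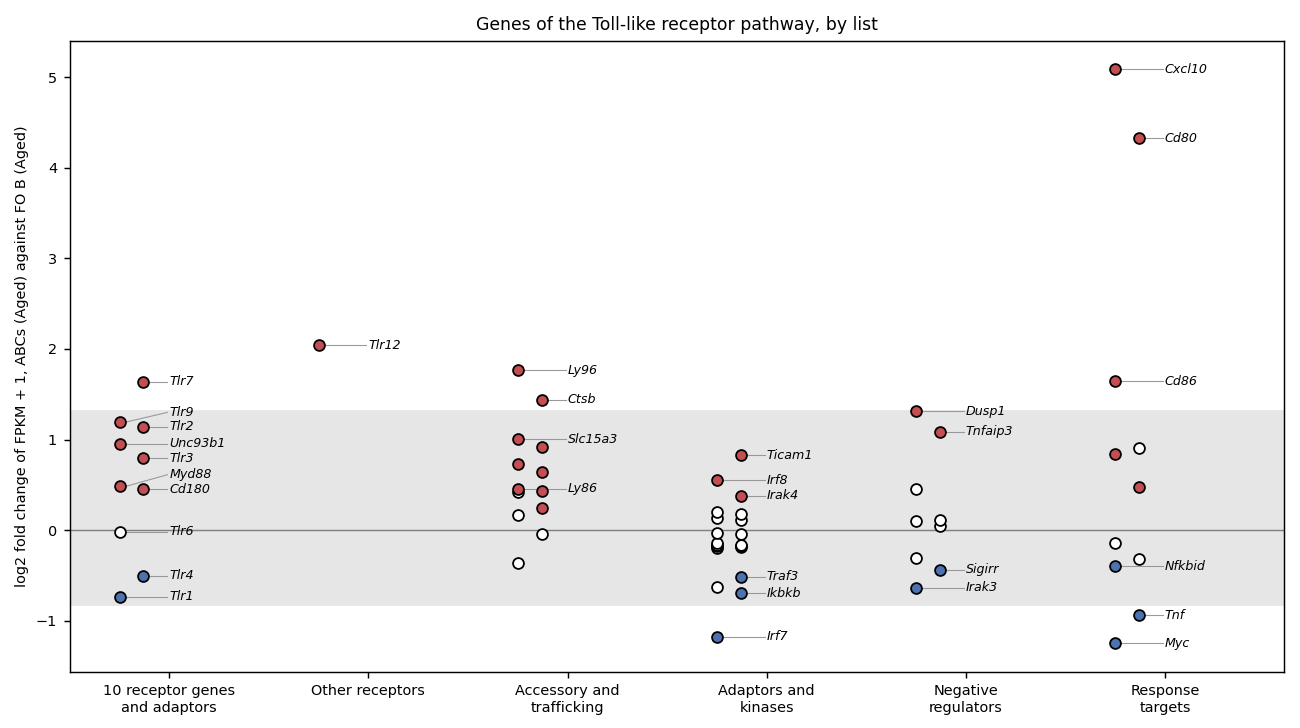
Log2 fold change of FPKM + 1 between ABCs (Aged) and FO B (Aged) on the y axis for each tested gene, grouped on the x axis into the 10 genes and 5 lists of related genes. Red points rose and blue points fell at a limma FDR under 0.05, white points did not pass, and the gray band holds the central 90% of all genes. Accessory and trafficking genes have 9 red and 0 blue points, and adaptors and kinases 3 of each.

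The 3 ABC libraries varied in a way that crossed the roles. Replicate 3 had the highest Tlr7, Unc93b1, Tlr2, Cd180, Myd88, Tlr12 and Cxcl10 and the lowest Tlr1 level of the group, and also the lowest level of the FO B cell gene Fcer2a. Replicate 2 had the highest Tlr9, Tlr3 and Tlr6 and the lowest Tlr7, Cd180, Myd88 and Tlr2 levels, together with the highest Fcer2a. The part of remaining CD23-expressing cells in these differences was not tested.

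The gene whose log2 levels ran most parallel to each of the 10 over the 9 libraries was searched among 10374 genes. For Unc93b1 it was Galns (Pearson r = 0.999), for Tlr1 Trim59 (0.997), for Tlr7 Cstb (0.991), for Myd88 Sdcbp2 (0.991), for Tlr9 D6Wsu163e (0.989), for Tlr2 Plbd2 (0.989) and for Tlr3 Sbf2 (0.986). The values were 0.978 for Cd180 with Arhgdia, 0.976 for Tlr4 with Zfp800 and 0.906 for Tlr6 with Wrb. The libraries fall into groups, so these values in part describe differences between groups and are not evidence from 9 independent points.

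Gene positions were taken from GENCODE M21, which annotates GRCm38 (mm10), where all 10 genes are annotated as protein-coding. Tlr7 spans chrX:167304929-167330558 and has 6 transcripts of up to 5 exons, and Tlr9 spans chr9:106222598-106226883 with a single transcript of 2 exons. Unc93b1 lies at chr19:3935186-3949340, Myd88 at chr9:119335934-119341411, Tlr3 at chr8:45395665-45411080 and Tlr2 at chr3:83836272-83841767. Tlr1 and Tlr6 are at chr5:64924679-64933563 and chr5:64952031-64960097, Tlr4 at chr4:66827584-66930284 and Cd180 at chr13:102693558-102739629. Besides Myd88, exons of Tlr3 share 381 bases with the antisense gene Gm45542 and exons of Cd180 share 182 bases with Mast4 on the opposite strand, so that part of their reads is uncertain as well.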

How the data were processed

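RNA-seq had been performed on 9 libraries (SMART-Seq HT cDNA, Nextera libraries, single-end reads). The authors deposited 1 FPKM value per gene symbol and library, calculated with the Cufflinks suite after mapping to mm10. The submitters' processing notes list TopHat2 2.1.1, Bowtie2 2.2.8, SAMtools 0.1.18 and Cuffdiff 2.2.1, of which the first 3 differ in version from the methods. The annotation, the counting of shared reads and any scaling between libraries are not given in the sources used here. From these values, log2(FPKM + 1) entered limma 3.58.1 under R 4.3.3 (lmFit, then eBayes allowing a trend). Each fit held the 6 libraries of its pair of groups and the genes averaging 1 FPKM or more in them, and calls were made at a Benjamini-Hochberg FDR under 0.05. All 10 genes passed this filter in each comparison. Their exact permutation tests of FPKM have a smallest p of 0.1. The limma p-values set the difference between groups against the spread between these libraries within groups, moderated over all genes tested. The study gives n = 3 mice per group, but no source ties a library to a mouse. Whole reads were recovered from the steps of low FPKM values to within 0.05 reads for 7 of the 10 genes, not for Tlr1, Tlr7 and Unc93b1, and a depth of about 7300000 to 8880000 mapped reads per library was approximated from 672 genes. They were not used in a test, and Python 3.11.15 served for all other steps. The steps were tested on simulated data. Some items are not reported here. The 10 genes, the gene lists and the tests were chosen with earlier results of these data known. All 10 genes were named, and from each list up to 3 called genes per direction with the largest change between ABCs (Aged) and FO B (Aged). Alternatives were a pseudocount of 0.1, no filter or one at 5 FPKM, quantile, TPM and upper quartile scaling, no trend, all 9 libraries, a replicate block, the thresholds of the study and leaving out each library.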

Additional observations from a re-analysis of the deposited data

How the results depend on the processing

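Direction was kept for 9 of the 10 genes between ABCs (Aged) and FO B (Aged). Tlr6, never called, turned to 0.13 with upper quartile scaling and ranged from -0.17 to 0.10 with 1 library left out. That scaling moved the median of all genes by 0.16, and 80.2% of 3050 calls were then higher, against 54.0% of 3739. Tlr3 lost its call with no filter and with quantile scaling (0.61), Cd180 with no filter and TPM scaling (0.42), Tlr4 with upper quartile scaling. With the mean of at least 5 FPKM, Tlr3, Tlr6 and Tlr9 were not tested. With 1 library left out, 7 to 8 of the 10 genes and 2550 to 3643 of all genes were called. The thresholds of the study left 200 genes and 0 of the 10. Against FO B (Young), upper quartile scaling gave 2764 calls against 4248, with 66.5% higher against 53.0%, and the thresholds of the study gave 230 calls and 0 of the 10.

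Between FO B (Aged) and FO B (Young), 47 genes were called. The count was 15 with no filter, 30 with no trend, 20 with all 9 libraries, 2 at the thresholds of the study, and 19 to 69 with 1 library left out, the lowest without FO B (Aged) replicate 1 (19) and FO B (Young) replicates 1 (21) and 2 (23). With upper quartile scaling 47.1% of calls were higher, against 74.5%. The count among the 10 genes was 0 to 1 with 1 library left out, Tlr7 without FO B (Aged) replicate 3. Small differences changed sign with 1 library left out, with ranges of -0.18 to 0.077 for Tlr2, -0.15 to 0.019 for Tlr9, -0.086 to 0.031 for Cd180, -0.058 to 0.019 for Unc93b1 and -0.014 to 0.059 for Myd88, which was -0.11 with upper quartile scaling. The causes were not tested.

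Whether the replicate numbers pair the libraries is not given in the sources used here, and 3 libraries per group cannot decide it. Between ABCs (Aged) and FO B (Aged), deviations from group means correlated at -0.108 to 0.0589 for differently numbered libraries. These ranges were -0.105 to 0.157 between FO B groups and -0.0591 to 0.0307 between ABCs (Aged) and FO B (Young). Correlations of same-numbered deviations were 0.0845, -0.019 and 0.108 between ABCs (Aged) and FO B (Aged), -0.0541, 0.138 and -0.0921 between FO B groups, and 0.0297, 0.0149 and -0.0423 between ABCs (Aged) and FO B (Young). With a replicate block, 3448, 37 and 3508 genes were called in these comparisons and, among the 10 genes, 8, 0 and 7, since Cd180 lost its call (FDR = 0.0656 and 0.0809).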
